A study of Mus musculus with 8 samples.

Results

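Smooth muscle contractile genes were examined in TGF-β-treated cardiac fibroblasts. The group held 10 of the 22274 genes in the table and was chosen by symbol: Acta2, Actg2, Tagln, Cnn1, Myl9, Myh11, Smtn, Lmod1, Mylk and Cald1. All 10 were found, each in 1 row, and all 10 were among the 13533 genes that passed the filter on low counts. Primary murine cardiac fibroblasts, cultured from mouse heart, received 5 ng/ml TGF-β for 24 h after transduction. By the study's legend the control cells carried the empty vector (Ad-EV), taken here as the 4 libraries labelled GFP. The 4 libraries labelled OEIRF7 were taken as those with a vector for overexpression of IRF7, a transcription factor of the interferon response. Every library had TGF-β, so the rise of contractile genes that TGF-β itself brings about was not measured here. The strain, sex and age of the mice that gave these cells were not given in the sources used here.

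Contraction of smooth muscle cells and of myofibroblasts, the contractile state that fibroblasts reach in scars, is driven by myosin II pulling on actin filaments. Myosin light chain kinase phosphorylates the regulatory light chain and switches the myosin on, a phosphatase switches it off, and calponin, caldesmon and transgelin bind the actin filament. Many of these genes share control by serum response factor (SRF), which binds a DNA element named the CArG box and works with myocardin or with the myocardin-related factors MRTF-A and MRTF-B. Acta2, which encodes α-smooth muscle actin (α-SMA), is the usual marker of the myofibroblast.

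Total counts per library ran from 24454801 to 28658826, and TMM factors, which scale libraries to each other, from 0.989 to 1.01. Values of 1 gene are given as raw counts or as CPM, which corrects counts for the TMM-scaled size of each library, and levels of different genes as FPKM, which are also scaled to gene length. Nothing in the labels says that the 4 libraries of a group came from separate cultures or animals, so the p-values measure the spread between these libraries. The study's legend gives fewer biological replicates than there are libraries per group and does not name them, and all 4 libraries of each group were used. The study's reagent list names an adenovirus with the human IRF7 gene under a CMV promoter together with EGFP. It also names an adeno-associated virus with mouse Irf7 under a periostin promoter, which the study injected into mice. For these libraries the series description names an adeno-associated virus. Counts of mouse Irf7 were 2861, 3680, 2272 and 3291 in the libraries labelled GFP and 385, 421, 380 and 404 in those labelled OEIRF7. Mouse counts cannot check a human transgene, and the fall goes against a mouse one. Directions below are therefore between the libraries as labelled. Of 9 fibroblast markers the summed FPKM lay between 2183 and 2245 in the libraries labelled GFP and between 2026 and 2149 in those labelled OEIRF7. Most of it came from the collagen genes Col1a1 (means of 762 and 692 FPKM) and Col1a2 (688 and 676 FPKM). A change in a less abundant marker such as Tcf21 (44.9 and 18.2 FPKM) hardly shows in this sum. Of 9 cardiomyocyte markers, 4 (Myh6, Myh7, Actn2 and Nppa) had at most 3 counts in any library. Tnnt2, cardiac troponin T, was at a mean of 10.2 FPKM under GFP and 7.31 FPKM under OEIRF7.

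RefSeq start-site sequence of GRCm38.p6, covering 250 bases before and 50 bases after a start site, was present for 7 of the 10 genes. No entry was there for Actg2, Tagln and Myh11. The windows of 3 genes are shown, because Acta2 is the myofibroblast marker, Myl9 had the largest fall among the 5 more abundant genes, and Smtn was the only one of the 10 that rose. Acta2 is on the minus strand at chr19:34255324-34255623, Myl9 on the plus strand at chr2:156775214-156775513 and Smtn on the minus strand at chr11:3539243-3539542. Each is written 5′ to 3′ along the gene. Capitals mark matches to the CArG-like element (CC, 6 bases of which at least 5 are A or T, GG) and to the TEAD element CATTCC on either strand.
Acta2: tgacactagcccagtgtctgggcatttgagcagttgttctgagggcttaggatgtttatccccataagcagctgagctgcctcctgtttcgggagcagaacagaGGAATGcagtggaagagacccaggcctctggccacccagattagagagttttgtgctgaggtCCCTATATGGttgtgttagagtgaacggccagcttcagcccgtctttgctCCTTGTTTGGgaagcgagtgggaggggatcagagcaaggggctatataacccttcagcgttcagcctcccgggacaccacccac
Myl9: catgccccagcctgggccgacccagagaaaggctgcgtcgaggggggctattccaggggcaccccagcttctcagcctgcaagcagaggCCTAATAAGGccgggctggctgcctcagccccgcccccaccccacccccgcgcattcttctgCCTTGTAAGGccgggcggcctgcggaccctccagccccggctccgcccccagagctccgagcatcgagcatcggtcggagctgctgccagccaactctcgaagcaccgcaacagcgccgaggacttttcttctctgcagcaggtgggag
Smtn: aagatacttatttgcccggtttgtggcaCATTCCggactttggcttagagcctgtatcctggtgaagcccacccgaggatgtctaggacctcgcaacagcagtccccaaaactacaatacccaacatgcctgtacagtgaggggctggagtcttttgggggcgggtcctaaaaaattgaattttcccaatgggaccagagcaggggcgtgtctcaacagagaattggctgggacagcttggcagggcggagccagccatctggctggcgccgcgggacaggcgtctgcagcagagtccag
A full CArG box, with A or T at all 6 inner positions, was found in the Myl9 window at -161, counted from the start site. Every full box is also a CArG-like match, and the latter was found in 2 of the 7 genes, at -161 and -99 in Myl9 and at -84 and -34 in Acta2. The full CArG box is present in 1.63% and the CArG-like element in 9.98% of 32851 mouse windows of the same length. CATTCC on either strand was found in 5 of the 7 genes, Acta2, Lmod1, Cald1, Smtn and Mylk, against 14.7% of all windows. The element GAAANNGAAA, the core of sites bound by interferon regulatory factors, was found on either strand in 1 of the 7, at -207 in Mylk, against 3.44% of all windows. The AP-1 element TGANTCA was found in 2 of the 7, at -197 in the window of a second Cald1 start site and at -64 in Mylk, against 7.81% of all windows. These counts are per gene, and the 7 genes had 8 windows, whereas the percentages are per window. A match describes the letters only, and absence of a match says only that these letters are not in this window.

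Contractile genes were lower in the libraries labelled OEIRF7 in 9 cases and higher in 1. By edgeR's quasi-likelihood test with Benjamini-Hochberg adjustment over 13533 tested genes, Acta2, Actg2, Tagln, Cnn1, Myl9, Myh11, Lmod1, Mylk and Cald1 fell, and Smtn rose. By the same call 29.9% of tested genes fell and 29.0% rose. A fall of more than 2-fold was seen in 5 of the 10 genes (Acta2, Actg2, Cnn1, Myl9 and Lmod1) and in 3.89% of all tested genes. The median log2 fold change of the 10 genes was -1.14, where that of all tested genes was 0.0015. In CPM, 9 of the 10 genes, all but Mylk, had no overlap between the groups, as had 53.8% of all tested genes.

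**Figure D1:**
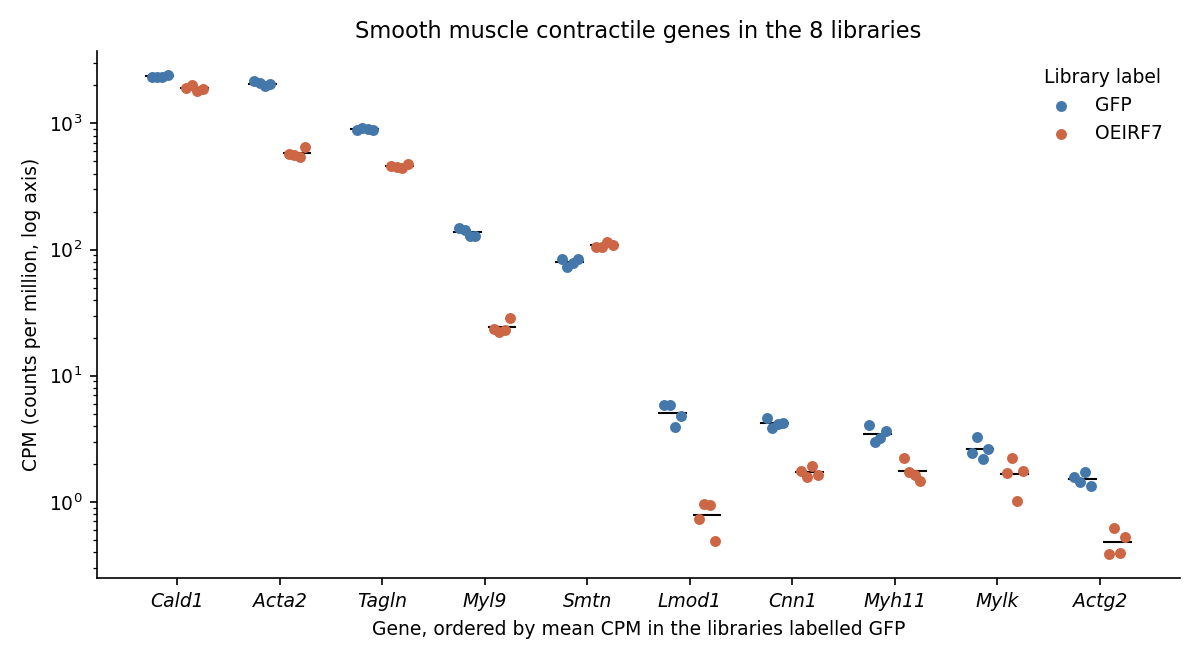
CPM (log axis) of the 10 contractile genes in each library, with 4 points per group and a bar at the group mean. Acta2 went from a mean of 2061 to 581 CPM and Myl9 from 137 to 24.4 CPM without overlap, Smtn lies higher in all 4 libraries labelled OEIRF7, and Mylk is the gene whose points overlap.

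Among the actins, Acta2 (ENSMUSG00000035783, chromosome 19, 34241090 to 34255590, minus strand, GRCm38) had 2146, 2084, 1969 and 2044 CPM in the libraries labelled GFP and 575, 557, 545 and 647 CPM in those labelled OEIRF7. Every library labelled OEIRF7 was far below the lowest library labelled GFP, and replicate 4 was the highest of its group. The mean went from 2061 ± 74.3 to 581 ± 46.1 CPM (SD, n = 4 per group), or -1.83 on the log2 scale (standard error 0.048, adjusted p = 1.2e-12), which is 28.2% of the level under the empty vector. It was the most abundant contractile gene per length under the empty vector, with 1106 ± 66.4 FPKM against 318 ± 27.6 FPKM under OEIRF7 (SD, n = 4). Actg2 (ENSMUSG00000059430, chromosome 6, 83512905 to 83536265, minus strand), the γ-actin of visceral smooth muscle, was rare, with 42, 36, 43 and 35 counts under GFP and 10, 18, 10 and 13 counts under OEIRF7. Its groups did not overlap either, and OEIRF7 minus GFP was -1.64 in log2 (standard error 0.25, adjusted p = 4.7e-05).

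Of the light chain and its kinase, Myl9 (ENSMUSG00000067818, chromosome 2, 156775420 to 156781658, plus strand), the regulatory light chain of smooth muscle, had 149, 143, 127 and 129 CPM under GFP and 23.5, 22.2, 23.2 and 28.7 CPM under OEIRF7. It kept 17.8% of its level, and its fall ranked 23rd among all tested genes. Mylk (ENSMUSG00000022836, chromosome 16, 34745210 to 35002420, plus strand), the kinase that phosphorylates this chain, was rare, with 66, 82, 54 and 69 counts under GFP and 44, 65, 26 and 43 under OEIRF7. The library OEIRF7 replicate 2 was above GFP replicate 3 in CPM, so 15 of 16 pairs of libraries were lower under OEIRF7. Its log2 fold change was -0.65 (95% confidence interval -1.12 to -0.17, adjusted p = 0.022). The call was lost without GFP replicate 2 (-0.53, adjusted p = 0.073 by edgeR) or without OEIRF7 replicate 3 (-0.47, adjusted p = 0.061 by edgeR), and in limma on log2(FPKM + 1) (adjusted p = 0.23) or log2(FPKM + 0.1) (adjusted p = 0.20).

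Of the actin-binding proteins, Tagln (ENSMUSG00000032085, chromosome 9, 45929619 to 45936058, minus strand), transgelin or SM22α, had 891, 924, 902 and 890 CPM under GFP and 456, 450, 441 and 478 CPM under OEIRF7. Replicates lay close together, with a coefficient of variation of 1.74% and 3.51%, and the groups were apart. The log2 difference was -0.98 (standard error 0.031, adjusted p = 7.6e-12). Exons of Tagln share 108 bases, 5.43% of its exonic length, with Pcsk7 on the opposite strand, and the antisense gene Gm48529, not analysed here, covers 62.4%. Whether the counting used strand is not given in the sources used here. Pcsk7 had a log2 fold change of 0.09 (adjusted p = 0.17).

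Cald1 (ENSMUSG00000029761, chromosome 6, 34598500 to 34775473, plus strand), caldesmon, which holds actin and myosin apart until calcium rises, had 2328, 2341, 2313 and 2426 CPM under GFP and 1898, 1998, 1803 and 1856 CPM under OEIRF7. The fall was the smallest of the 9, at -0.32 on the log2 scale (standard error 0.032, adjusted p = 7.1e-07), and still left all 4 libraries labelled OEIRF7 below the others. The gene has forms for smooth muscle and for other cells, and the counts do not separate them. Cnn1 (ENSMUSG00000001349, chromosome 9, 22099216 to 22109630, plus strand), the calponin of smooth muscle, was rare, with 125, 97, 102 and 110 counts under GFP and 45, 46, 49 and 40 under OEIRF7. No library overlapped with the other group, with a log2 difference of -1.30 (standard error 0.14, adjusted p = 2.0e-06).

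Myh11 and Lmod1 mark mature smooth muscle cells most strictly, and both were rare in these fibroblasts. Myh11 (ENSMUSG00000018830, chromosome 16, 14194535 to 14291372, minus strand), the myosin heavy chain of smooth muscle, had 109, 75, 79 and 95 counts under GFP and 57, 50, 42 and 36 under OEIRF7. The log2 difference was -0.98 (standard error 0.17, adjusted p = 0.00020). Lmod1 (ENSMUSG00000048096, chromosome 1, 135324807 to 135368065, plus strand), leiomodin, which starts new actin filaments in smooth muscle, had 157, 145, 97 and 126 counts under GFP and 19, 28, 24 and 12 under OEIRF7. In both genes the groups were apart. Lmod1 had the lowest log2 fold change of the 10 genes, -2.69 (standard error 0.21, adjusted p = 6.0e-08), the 16th largest fall among all tested genes.

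Smtn (ENSMUSG00000020439, chromosome 11, 3517523 to 3540612, minus strand), smoothelin, a cytoskeletal protein of contractile smooth muscle, was the exception. It had 83.9, 72.8, 77.7 and 84.4 CPM under GFP and 104, 104, 115 and 108 CPM under OEIRF7, so each library labelled OEIRF7 was above each labelled GFP. This rise was 0.44 on the log2 scale (standard error 0.050, adjusted p = 3.1e-06), or 1.35-fold. Exons of Gm11946, on the opposite strand, overlap 16.3% of its exonic length.

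Per length, the 10 genes fell into a small abundant set and a rare one. Acta2, Cald1 and Tagln took 94.2% of the summed FPKM of the 10 genes under GFP and 95.7% under OEIRF7. Under GFP the order by mean FPKM was Acta2 (1106), Cald1 (767), Tagln (579), Myl9 (120), Smtn (23.7), Cnn1 (2.93), Actg2 (1.32), Lmod1 (1.28), Myh11 (0.525) and Mylk (0.487). In that order only Actg2 with Lmod1 and Myh11 with Mylk had overlapping ranges. Under OEIRF7 it was Cald1 (649), Acta2 (318), Tagln (295), Smtn (32.8), Myl9 (21.8), Cnn1 (1.25), Actg2 (0.448), Mylk (0.312), Myh11 (0.273) and Lmod1 (0.200). There Acta2 and Tagln overlapped in range, although Acta2 was above Tagln within each of the 4 libraries, and the ranges of the 4 rarest genes overlapped between neighbours. Cald1 took the first place from Acta2, and Smtn the fourth place from Myl9, in all 4 libraries labelled OEIRF7.

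The summed FPKM of the 10 genes went from 2602 ± 82.0 under GFP to 1319 ± 38.2 under OEIRF7 (SD, n = 4). As a share of all counts they went from 0.549% to 0.309%. Proportions within the set shifted as well. The FPKM of Acta2 was 1.91 ± 0.096 times that of Tagln under GFP and 1.07 ± 0.069 times under OEIRF7, and 1.44 ± 0.089 times that of Cald1 against 0.491 ± 0.054 times (SD, n = 4). Against Myl9 it moved the other way, from 9.21 ± 0.35 to 14.6 ± 0.72 times. In bulk RNA, fewer cells that carry the contractile programme and less of its RNA per cell cannot be told apart.

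Most contractile proteins of smooth muscle have paralogues that other cells use. The share of the smooth muscle gene in the summed FPKM of its family was therefore computed in each library. Acta2 was 31.9%, 33.1%, 30.7% and 30.4% of actin FPKM (with Actg2, Acta1, Actc1, Actb and Actg1) under GFP and 12.5%, 11.7%, 11.6% and 13.0% under OEIRF7. Tagln was 67.0%, 65.4%, 66.8% and 65.0% of transgelin FPKM under GFP and 41.6%, 40.7%, 42.1% and 42.1% under OEIRF7. Tagln2 thus exceeded Tagln per length in the libraries labelled OEIRF7, the reverse of the libraries labelled GFP. Myl9 went from 8.94 ± 0.66% to 2.22 ± 0.27% of regulatory light chain FPKM (SD, n = 4). The rarer genes held small shares throughout: Cnn1 0.822% and 0.455% of calponin, Myh11 0.199% and 0.128% of myosin II heavy chain, and Actg2 0.0378% and 0.0171% of actin FPKM, as means under GFP and OEIRF7. All 6 shares were lower in each library labelled OEIRF7 than in each labelled GFP (exact two-sided permutation test, p = 0.029 for each, adjusted p = 0.029 over 6 shares, the smallest p that 4 against 4 allow).

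**Figure D2:**
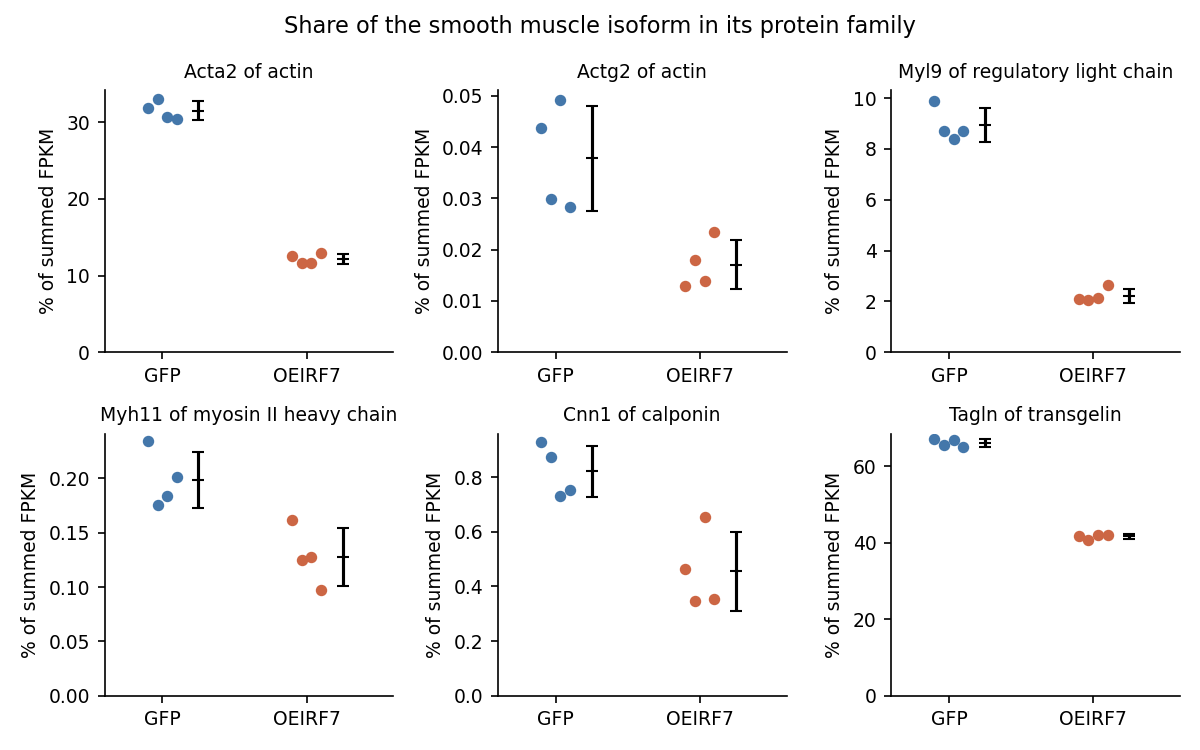
Percent of the summed FPKM of a protein family taken by its smooth muscle gene, with 1 point per library and the mean with SD beside them, on axes that start at 0. In all 6 panels the 4 libraries labelled OEIRF7 lie below the 4 labelled GFP, with Acta2 going from a mean of 31.5% to 12.2% of actin and Tagln from 66.1% to 41.6% of transgelin.

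Most of the other genes in these families moved less. Actb and Actg1, the cytoplasmic actins, had log2 fold changes of -0.10 and -0.10 (adjusted p = 0.0055 and 0.0060 by edgeR), and Acta1, the skeletal muscle actin, had 0.19 without passing the test (adjusted p = 0.41). Actc1, the cardiac actin, had at most 3 counts and was not tested. Tagln2 rose by 0.46 on the log2 scale (standard error 0.032), opposite to Tagln. Cnn2 fell, with -0.74, and Cnn3 fell, with -0.15 and overlapping groups. The nonmuscle myosin heavy chains Myh9 and Myh10 fell as well (-0.29 and -0.77), and Myh14 did not pass the test (-0.11, adjusted p = 0.53). Tagln3 was too low to test. In calponin and myosin heavy chain, then, the smooth muscle gene fell and so did a pair of nonmuscle paralogues.

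**Figure D3:**
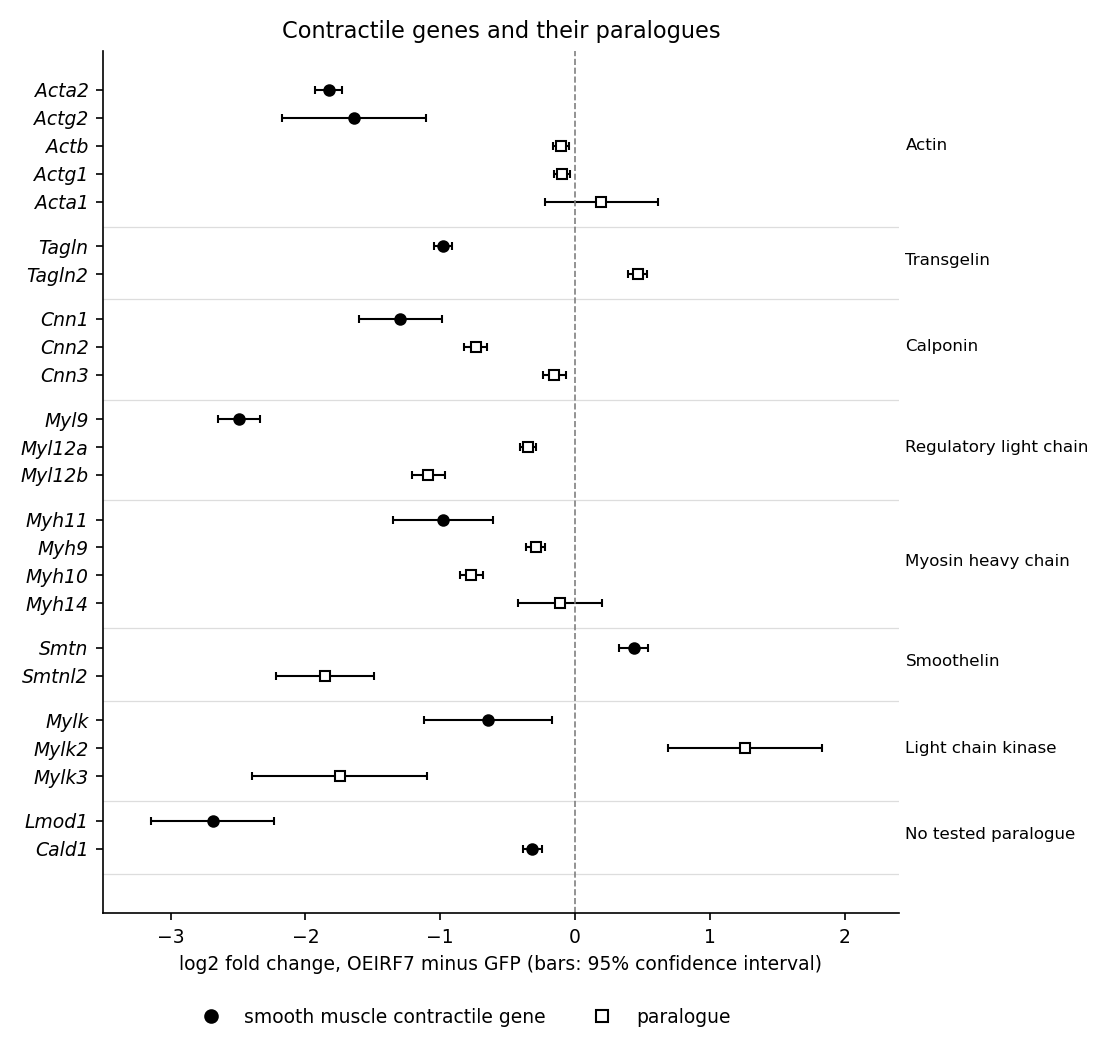
Log2 fold change (OEIRF7 minus GFP) with 95% confidence interval from edgeR for the 10 contractile genes (filled circles) and tested paralogues (open squares), grouped by family. Of the tested paralogues, Myl6 is not drawn. In the actins, Acta2 (-1.83) and Actg2 (-1.64) lie far left of Actb and Actg1 (both -0.10), Tagln (-0.98) and Tagln2 (0.46) lie on opposite sides of 0, and Smtn (0.44) and Smtnl2 (-1.86) do so in reverse.

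The light chain family is the least certain of these. Myl12a fell by 0.35 (standard error 0.028) and Myl12b by 1.09 (standard error 0.057), yet a second, overlapping gene model of Myl12b, which the table lists as Gm49909, fell by 0.37. The second model held most of the signal: the row listed as Myl12b went from a mean of 71.1 to 35.2 FPKM, and both models together from 532 ± 48.3 to 402 ± 9.54 FPKM (SD, n = 4). In 100-base windows, 24.5% of the longest Myl12a transcript and 31.4% of that of Myl12b occur identically in other genes, so reads could be split between them. Without the second model the share of Myl9 was 13.6 ± 0.87% under GFP and 3.55 ± 0.41% under OEIRF7 (SD, n = 4), an alternative added after the data were seen. No 100-base window of the longest transcript of any of the 10 contractile genes was found in another gene, against 51.1% of those of Actg1. Opposite-strand exon overlaps, such as those of Tagln and Smtn given above, are not counted in this.

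Outside those 5 families, Smtnl2, a smoothelin-like gene, fell by 1.86 on the log2 scale (standard error 0.17, adjusted p = 2.7e-07), opposite to Smtn, at a mean of 2.54 FPKM under GFP and 0.705 FPKM under OEIRF7. The kinases related to Mylk, both rare here, went apart: Mylk2, known from skeletal muscle, rose by 1.26 (standard error 0.27), and Mylk3, known from heart muscle, fell by 1.75 (standard error 0.30). Myl6, the essential light chain that smooth muscle and nonmuscle myosin share, fell by 0.35 (standard error 0.046). Smtnl1, Lmod2, Lmod3 and Mylk4 had too few counts to test. These paralogues outside the 5 families were named after their values were seen. Of 21 paralogues, 15 were tested, 11 fell and 2 rose (all tested genes: 29.9% and 29.0%), with a median of -0.29. Among the 12 family paralogues with a start-site window, 4 held a full CArG box (Acta1, Actc1, Actg1 and Cnn2). The log2 fold changes of the 4 were 0.19 for Acta1 (not called), -0.10 for Actg1 and -0.74 for Cnn2, and Actc1 was not tested.

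A list of 12 SRF and myocardin-related regulators was set beside these genes. It held Srf, Myocd, Mrtfa and Mrtfb, but also genes such as Fhl1, Lpp and Klf4. Its counts by direction therefore do not describe SRF and its cofactors alone. All 12 were tested, 10 fell and 2 rose (all tested genes: 29.9% and 29.0%), with a median log2 fold change of -0.38. Srf itself fell by 0.23 (standard error 0.059), from a mean of 15.6 to 14.1 FPKM. Myocd, myocardin, was rare at 0.527 FPKM under GFP and 0.255 FPKM under OEIRF7 and fell by 0.87 (standard error 0.23, adjusted p = 0.0046). Mrtfa and Mrtfb, its relatives, moved little and apart, with Mrtfa rising by 0.14 (adjusted p = 0.041) with overlapping groups and Mrtfb falling by 0.19 (adjusted p = 0.0017). The largest falls among the abundant ones were those of Fhl1, a LIM protein of muscle (-1.07, standard error 0.055), Lpp, a focal adhesion protein of smooth muscle (-0.76, standard error 0.038), and Tgfb1i1, the adaptor Hic-5 (-0.62, standard error 0.060). Klf4, a factor that represses smooth muscle genes, rose by 0.60 (standard error 0.056, adjusted p = 3.0e-07). Srf, Myocd and Mrtfb were named after their values were seen.

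Genes of light chain phosphorylation other than Mylk did not move in one direction. All 17 were tested, 9 fell and 6 rose (all tested genes: 29.9% and 29.0%) and 2 did not pass the test, with a median of -0.13. Ppp1r12b and Ppp1cb, subunits of the myosin phosphatase, rose by 0.45 and 0.32 (standard errors 0.049 and 0.034), while Ppp1r12a, another targeting subunit, at a mean of 23.4 FPKM under GFP, fell by 0.22 (standard error 0.044, adjusted p = 0.00070). Ppp1r14b, of the family of phosphatase inhibitors, rose by 0.57 (standard error 0.042). Falls were largest among the abundant genes for Prkg1, the cGMP-dependent kinase that relaxes smooth muscle (-0.84, standard error 0.047), and Calm3, a calmodulin gene (-0.71, standard error 0.038). Ppp1r14a, the smooth muscle inhibitor CPI-17, was rare and fell by 1.53 (standard error 0.30, adjusted p = 0.00050). Ppp1r14a and Ppp1r12a were named after their values were seen.

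Most other genes of the smooth muscle programme were also lower. Of 21, 19 were tested, 12 fell and 1 rose (all tested genes: 29.9% and 29.0%) and 6 did not pass the test, with a median of -0.85. Synpo2, synaptopodin 2, fell (-1.47, standard error 0.14), as did Tpm2, β-tropomyosin (-1.36, standard error 0.061), from a mean of 69.4 to 27.6 FPKM, and Pdlim3, a PDZ and LIM protein of the Z-disc (-1.29, standard error 0.10). The gene that rose was Des, desmin, at 0.268 FPKM under GFP and 0.578 FPKM under OEIRF7 (1.08, standard error 0.34, adjusted p = 0.014), with overlapping groups. It was named after its value was seen.

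**Figure D4:**
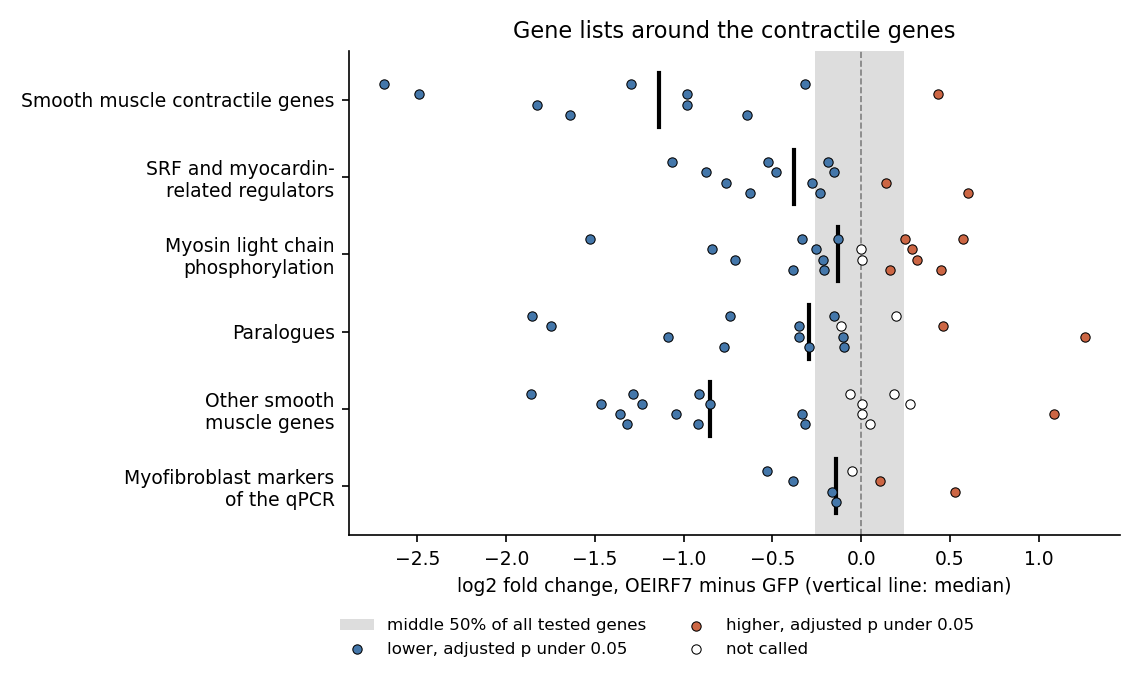
Log2 fold change (OEIRF7 minus GFP) of each tested gene in 6 lists, with the list median as a vertical line, the middle 50% of all tested genes shaded (-0.26 to 0.24), and colours for genes called lower, higher or not called at an adjusted p under 0.05. The medians of the contractile genes (-1.14), the other smooth muscle genes (-0.85), the SRF regulators (-0.38) and the paralogues (-0.29) lie left of the shaded range, and those of light chain phosphorylation (-0.13) and the myofibroblast markers (-0.14) lie within it.

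Matrix and other myofibroblast markers went in both directions. The list was that of the mouse genes with listed qPCR primers in the same work, without Acta2 and the genes that the study itself manipulated. Of these 7, 4 fell, 2 rose and 1 did not pass the test, with a median of -0.14. Over all tested genes, 29.9% fell and 29.0% rose. Col3a1, type III collagen (-0.53, standard error 0.052), Postn, periostin (-0.38, standard error 0.035), and Col1a1, type I collagen (-0.16, standard error 0.033), fell. Timp1, an inhibitor of matrix proteases (0.53, standard error 0.051), and Lox, which cross-links collagen (0.11, standard error 0.026), rose. None of the 7 reached a 2-fold change. Acta2 by comparison kept 28.2% of its level, and Col3a1, Postn and Timp1 had larger changes in size than Cald1 (-0.32).

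Smooth muscle cells and pericytes carry some of the same genes, so mural markers were set beside these results. For the counts below, 29.9% of all tested genes fell and 29.0% rose. Of 9 markers, 7 were tested, 3 fell and 3 rose, and the summed FPKM ranged from 275 to 296 under GFP and from 250 to 275 under OEIRF7, most of it from Pdgfrb (259 and 237 FPKM). Notch3 (-1.61), Mcam (-0.96) and Pdgfrb (-0.16) fell, Cspg4 (1.50) and Rgs5 (0.73) rose beside Des, and Higd1b and Kcnj8, which mark pericytes, had at most 5 counts in any library. The part of mural cells in the fall of the contractile genes was not tested. Summed FPKM of 6 macrophage markers ranged from 58.7 to 64.4 under GFP and from 67.5 to 81.0 under OEIRF7, with 3 of 6 higher, and that of 6 endothelial markers from 64.8 to 68.6 and from 67.7 to 75.4, with 1 of 6 lower and 2 of 6 higher. For 5 epicardial markers the ranges were 35.8 to 38.4 and 33.4 to 38.6, with 2 of 5 lower and 2 of 5 higher, and for 9 cardiomyocyte markers, of which 2 were tested and Tnnt2 fell (-0.54, standard error 0.11), 8.81 to 12.3 and 7.09 to 9.33. Fibroblast markers fell in 5 and rose in 1 of 9 cases, Tcf21 by the most (-1.33, standard error 0.095). The part of these cell types was not tested.

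The 5 tested genes whose pattern over the 8 libraries lay closest to that of Acta2 were Dmpk, Afap1l2, Hook3, Rasgrp3 and Tbx20. Likeness was the root mean square difference of log2 CPM after subtraction of each gene's mean under GFP, and it ran from 0.070 for Dmpk to 0.116 for Tbx20. Their log2 fold changes ran from -1.77 to -1.85. Tbx20, a T-box factor of the heart, had a mean of 744 CPM under GFP and 211 CPM under OEIRF7. The contractile genes of the set were left out of this search, which took genes with a mean above 5 CPM. The measure itself picks fold changes near that of Acta2.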

How the data were processed

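RNA-seq libraries of TGF-β-treated primary murine cardiac fibroblasts were grouped by their titles, 4 as GFP and 4 as OEIRF7. Reads were cleaned by the authors in Trimmomatic and aligned to GRCm38 by HISAT2, and the authors deposited raw counts per gene from HTSeq-count. The authors also deposited FPKM from Cufflinks, normalized for gene length and depth and rounded to 2 decimals. Tool versions are not given in the sources used here, nor is the strand setting, and the labels and the study's methods name different extraction and library kits. Columns with the authors' group means, log2 ratios, p-values and FDR of their own comparison were not used. Gene symbols in the table had the letters nc replaced by GFP, so genes were joined by Ensembl identifier, and 22219 of 22274 were found in GENCODE M21, from which names and coordinates were taken.

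The test on counts was that of edgeR 4.0.16 under R 4.3.3 (filterByExpr, TMM, glmQLFit and glmQLFTest, no covariates), with Benjamini-Hochberg adjustment over 13533 genes and a call at an adjusted p under 0.05. Total counts ran from 24454801 to 28658826 per library, so genes near 1 CPM rest on few counts. Levels of different genes were compared by FPKM, and cut-offs on low counts were set in CPM. Family shares were compared by an exact two-sided permutation test in scipy 1.17.1. The 10 genes and all lists were chosen with earlier results of these data known. All 10 were named, and of each list at most the 3 largest rises and 3 largest falls with a mean above 5 CPM, all paralogues of 5 families, and the 5 genes most like Acta2, while others are marked in the text. Alternatives were DESeq2 1.42.0, limma 3.58.1 on FPKM in log2 with a pseudocount of 1 or 0.1 (genes whose mean FPKM exceeded 0.1), other scalings, other filters, a replicate block, leaving out each library, and shares of counts. The fits were tested on simulated data with a fixed spread and far fewer changed genes than were called here. That run does not check the scaling or the error rate in these data. Replicates of a group were not duplicates of each other, since chi-square over its degrees of freedom was 2.69 or more for each pair.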

Additional observations from a re-analysis of the deposited data

Results flagged for a closer look

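The share of Myl9 in regulatory light chain FPKM stood apart in 1 library labelled OEIRF7, replicate 4, at 2.63% against 2.04% to 2.12% in the other 3 libraries of that label. Its gap to the next library exceeded Dixon's 95% limit for 4 samples. It was the only such case among 20 groups of member values and 12 groups of shares, and chance gives about 1 in 20 groups. The library remained far below the lowest share under GFP, 8.41%.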

How the results depend on the processing

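The number of contractile genes called lower was 8 or 9 and the number called higher was 1 in each of 16 alternatives, and no log2 fold change reversed. Mylk was the gene whose call was lost, under limma at either pseudocount and without GFP replicate 2 or OEIRF7 replicate 3. Limma on log2(FPKM + 1), a scale on which rare genes are compressed, gave -0.92 for Lmod1, -0.68 for Actg2, -0.81 for Cnn1 and -0.26 for Myh11, all still called. Leaving out 1 library gave share differences of -19.7 to -18.8 points for Acta2, -0.0239 to -0.0170 for Actg2, -6.89 to -6.39 for Myl9, -0.0825 to -0.0594 for Myh11, -0.433 to -0.331 for Cnn1 and -24.8 to -24.1 for Tagln, all with an exact p of 0.057, the smallest that 3 against 4 allow. Shares of counts gave the same calls, with smaller differences for Actg2 (-0.0131 points) and Cnn1 (-0.239 points), and the added setting without the second Myl12b model gave -10.0 points for Myl9.

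Nothing in the labels says that equal replicate numbers are pairs, and the main test did not treat them so. Correlations of same-numbered deviations were 0.079, 0.095, 0.138 and 0.104, each the highest for its library, as a hint from the data and not from the design. With the replicate block, 9 contractile genes were lower and 1 was higher, and over all genes 4154 were lower and 4057 higher against 4045 and 3924 without it. At this depth the 5 genes under 6 CPM (Actg2, Cnn1, Lmod1, Myh11 and Mylk) carry standard errors of 0.14 to 0.25, the abundant ones 0.031 to 0.074.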
